A study of Homo sapiens with 6 samples.

Results

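The genes of sterol and fatty acid synthesis were examined in irradiated HCT116 cells, an epithelial line from a human colorectal carcinoma, with and without the nuclease CAD. The group was chosen by gene symbol and holds 33 of the 20020 genes in the count table. It covers the transcription factors of the pathway and the proteins that control them, and the enzymes of the mevalonate and cholesterol pathways. A sterol carrier and the enzymes that make, elongate and desaturate fatty acids complete it. CAD, the caspase-activated DNase that cuts DNA between nucleosomes, is encoded by DFFB. mRNA levels by RNA-seq were compared between 3 libraries of CAD-knockout cells given ionizing radiation (CAD-KO+IR) and 3 libraries of cells that carried the empty guide vector and received the same radiation (sgVec+IR). The dose was 8 Gy and cells were taken 24 h later, and all 6 libraries share the line, the lentiviral CRISPR vector and the irradiation. More than 1 stable knockout line of these cells was made, with separate guides, and the labels do not say which the libraries come from. The study names CAD-KO2 cells where it describes gene set results of its RNA-seq. Whether a line is a clone or a pool is not given in the sources used here. Unirradiated libraries were not analysed here, so the comparison holds CAD status at 1 time after radiation.

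Cells make cholesterol from acetyl-CoA by way of mevalonate, squalene and lanosterol, and make palmitate from acetyl-CoA by way of malonyl-CoA. Both routes are switched on by the SREBP transcription factors, which are held in the endoplasmic reticulum by SCAP and the INSIG proteins when sterol is plentiful. When sterol is scarce, SCAP carries SREBP to the Golgi, where it is cut, and the released fragment enters the nucleus and binds sterol regulatory elements. INSIG1 is itself a target of SREBP, so its mRNA is often read as a reporter of pathway activity, whereas INSIG2 is largely under other control. Proliferating epithelial tumour cells commonly make much of their own fatty acid.

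Promoters of 5 members, picked from the 33, are shown. SREBF2, which encodes the SREBP-2 factor, and INSIG1, HSD17B7 and SCD hold motifs marked in capitals and are among the members described most fully below. INSIG2, the member with the highest fold change, holds no marked motif. The stretches lie upstream of the transcribed part of each gene, at chr22:41832929-41833078, chr7:155297628-155297775, chr1:162790552-162790701, chr10:100346983-100347123 and chr2:118088302-118088451, all on the plus strand of GRCh38.p14, and come from RefSeq. Capitals mark matches to TCACNCCAC, a core of the sterol regulatory element, and to CCAAT or its reverse ATTGG, the box bound by NF-Y, a partner of SREBP.
SREBF2: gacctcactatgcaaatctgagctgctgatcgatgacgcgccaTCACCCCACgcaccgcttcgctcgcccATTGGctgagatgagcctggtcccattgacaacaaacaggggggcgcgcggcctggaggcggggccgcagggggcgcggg
INSIG1: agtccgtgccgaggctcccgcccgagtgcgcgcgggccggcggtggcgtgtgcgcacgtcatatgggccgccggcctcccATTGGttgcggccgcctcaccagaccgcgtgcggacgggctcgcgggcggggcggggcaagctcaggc
HSD17B7: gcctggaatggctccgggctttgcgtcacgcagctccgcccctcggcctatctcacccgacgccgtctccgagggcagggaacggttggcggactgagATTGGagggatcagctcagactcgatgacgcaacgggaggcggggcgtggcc
SCD: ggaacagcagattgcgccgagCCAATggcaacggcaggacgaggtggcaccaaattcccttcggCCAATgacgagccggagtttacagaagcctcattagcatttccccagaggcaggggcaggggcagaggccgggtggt
INSIG2: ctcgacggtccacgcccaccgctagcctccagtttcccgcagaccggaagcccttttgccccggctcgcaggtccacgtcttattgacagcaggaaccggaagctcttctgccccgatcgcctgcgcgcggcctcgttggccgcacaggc
Of the 33 members, 29 had a RefSeq promoter entry, and ACAT2, SQLE, FDFT1 and FASN had none. In the 250 bases before the start, on both strands, TCACNCCAC lay in 0.883% of all 35116 starts and in the promoter of 1 member, SREBF2, 133 to 125 bases before its start. CCAAT was present in 25 of 41 member starts (61.0%) against 32.0% of all starts, and GGGCGG, the GC box, in 87.8% against 42.6%. CACGTG, the E-box, was present in 9.76% of member starts and 6.34% of all starts. By gene, CCAAT was present in 21 of the 29, among them HMGCS1 (log2 fold change 0.032). It was absent from FADS1 (−0.24), ELOVL6 (−0.33) and SREBF1 (−0.29). A link between motif and fold change was not tested. A match is a letter string and was not tested for binding.

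The 6 libraries held 14032994 to 19574144 counts. The 3 CAD-KO+IR totals all exceeded the 3 sgVec+IR totals, and the exact two-sided permutation test gave p = 0.1, the smallest it can give with 3 against 3. Depth and CAD status therefore cannot be told apart. DFFB, the targeted gene, was 10.03, 10.1 and 12.4 CPM (counts scaled to a library of 1000000) in CAD-KO+IR and 21.8, 22.9 and 20.9 in sgVec+IR, a log2 fold change of −1.02 (SE 0.193), with an adjusted p of 0.550 in edgeR's quasi-likelihood test and 1.64e-07 to 0.9999 over the alternatives. Defining epithelial genes were present in all libraries, with a summed level of 2851 to 4065 CPM in CAD-KO+IR and 2153 to 4198 in sgVec+IR, although VIL1 was at 0 to 3 counts. Leukocyte markers summed to at most 0.921 CPM, with CD3E at 0 throughout. Fibroblast markers summed to 25.9 to 39.8 CPM in CAD-KO+IR and 12.3 to 48.9 in sgVec+IR, nearly all COL1A1, with DCN and LUM at 0. Endothelial markers summed to 1.002 to 2.22 CPM in CAD-KO+IR and 4.16 to 6.07 in sgVec+IR, without overlap. The 2 lowest epithelial sums were those of the 2 libraries described next, and the part of any marker in the results below was not tested. In bulk RNA, fewer cells of a type and less RNA per cell cannot be told apart.

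Before any comparison, 2 libraries stood apart. The sgVec+IR replicate 3 library had 7561 genes with no count against 4577 to 5232 in the other 5, and its log2 CPM correlated with its partners at 0.890 and 0.886, while those partners correlated at 0.993. CAD-KO+IR replicate 2 correlated with its partners at 0.969 and 0.975, against 0.993 between them. Both deviated along the GC content of the transcripts: over 12078 genes, GC content and the deviation from the group partners had a Pearson r of −0.70 for sgVec+IR replicate 3 and −0.79 for CAD-KO+IR replicate 2. These are descriptions across genes, which share each library and are not replicates. The members moved with it, since 15 of the 19 members above the median GC content of 49.2% were lower in sgVec+IR replicate 3 than in its partners, against 5 of the 14 at or below it, and 18 members were lower and 10 higher in both deviating libraries. Most results are therefore given with and without these 2 libraries, a choice made after the data were seen. The part of GC content in each result was not tested beyond the GC-corrected values below.

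**Figure D1:**
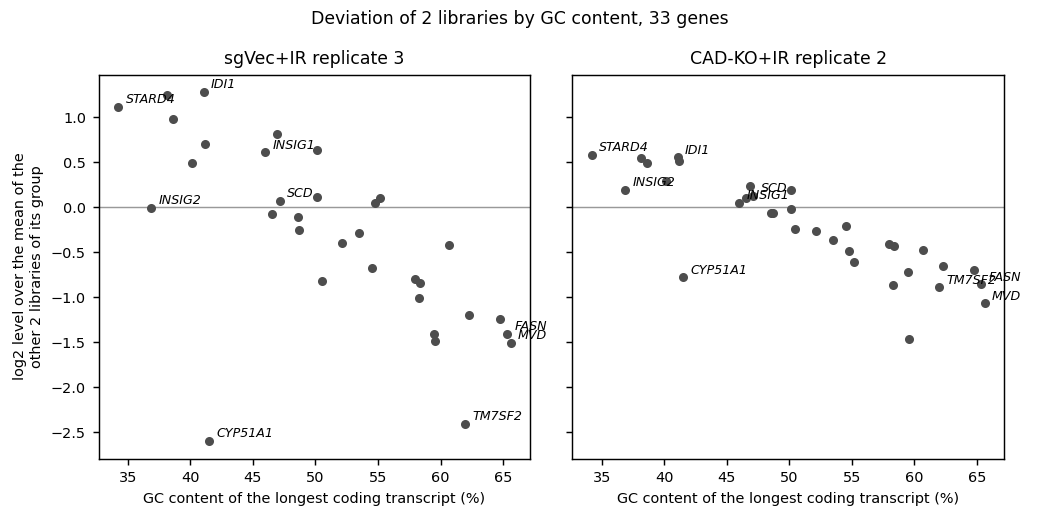
Deviation of each member in the 2 libraries that stand apart, as the log2 ratio to the other libraries of the same group, against the GC content of its longest coding transcript in percent. Members rich in GC mostly lie low and members poor in GC high in both libraries, with CYP51A1 low in both at 41.5% GC (Pearson r −0.69 for sgVec+IR replicate 3 and −0.84 for CAD-KO+IR replicate 2).

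Across all 6 libraries the 33 members were mostly a little lower in CAD-KO+IR, and none passed the test. All 33 were tested among 12925 genes. In edgeR, 0 members were differentially expressed (adjusted p below 0.05 and a fold change of at least 1.5), beside 0.0309% of all genes tested. DESeq2 also called 0 members, beside 0.245% of all genes. At an unadjusted p below 0.05, 2 members, INSIG1 and SCD, were lower, beside 1.76% of all genes, and 0 were higher, beside 1.08%. By direction, 29 members lay below and 4 (SCAP, INSIG2, HMGCS1 and SQLE) above 0 on the log2 scale, beside 51.9% of all genes below it. The median log2 fold change was −0.18 for the members and −0.011 for all genes, and the members ran from −0.62 for INSIG1 to 0.25 for INSIG2. With CAD-KO+IR replicate 2 alone left out, 20 members lay below 0 and 13 above (beside 51.1% of all genes below), and the median was −0.067. The median was −0.092 without sgVec+IR replicate 1 and −0.077 without sgVec+IR replicate 2. The adjusted p was 0.9999 for every member.

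Read library by library, every CAD-KO+IR library was below every sgVec+IR library for 6 members (18.2%, beside 5.01% of all genes tested): INSIG1, FDFT1, HSD17B7, ACACB, SCD and FADS1. The opposite order held for 1 member, INSIG2, beside 5.23% of all genes. After removal of each library's GC trend, the lower count was 14 (42.4%, beside 10.2% of all genes) and the higher count 0 (beside 11.3%). The 14 added SREBF1, EBP, SC5D, STARD4, ACLY, ACSS2, FASN and ELOVL6 to the 6 named above. After GC correction, 28 of the 33 members were below 0 (beside 49.2% of all genes), with a median of −0.15. No adjusted p reached 0.05 in that GC-corrected fit, and the lowest were 0.159 for SCD and 0.163 for INSIG1.

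**Figure D2:**
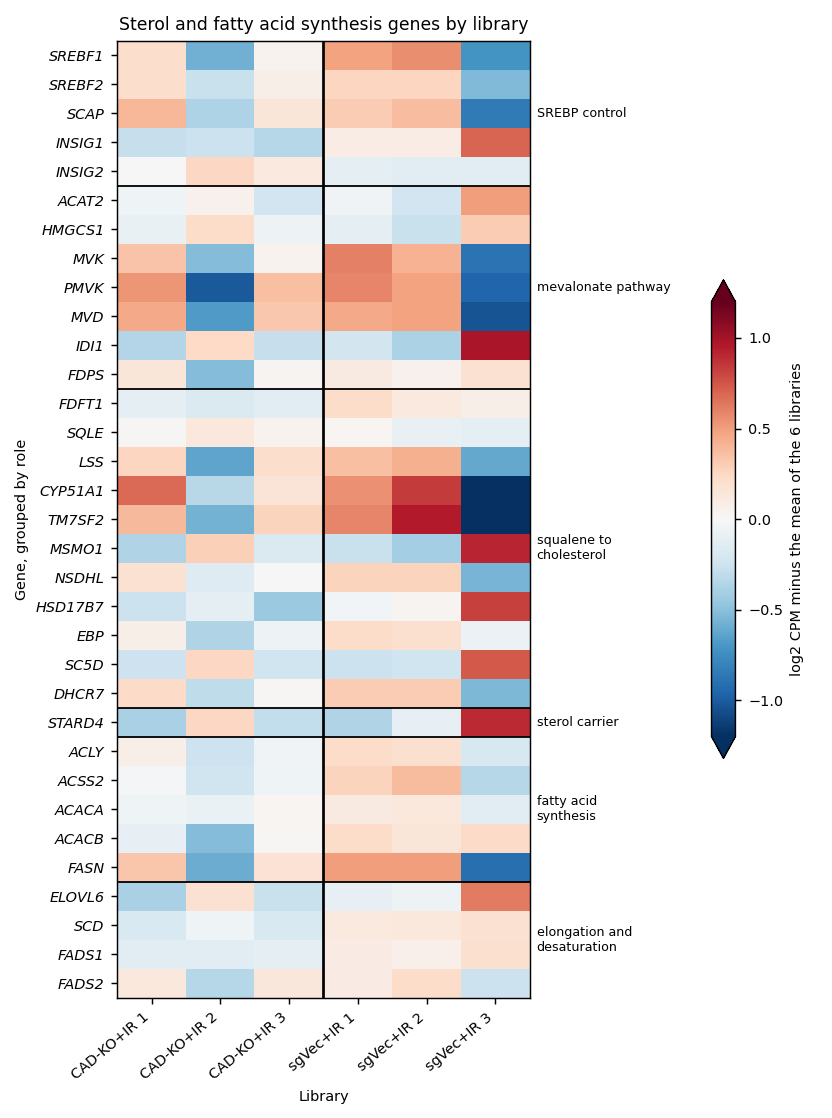
Level of each of the 33 members in each of the 6 libraries, as log2 CPM relative to the gene's mean, grouped by role, with the color scale capped at both ends. The sgVec+IR replicate 3 and CAD-KO+IR replicate 2 columns share a pattern across genes that crosses the 2 groups.

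With both deviating libraries left out, 4 libraries remained and the members again leaned lower. There, 26 of 33 members were below 0 (beside 50.4% of all genes), the median was −0.17, and 10 members had an adjusted p below 0.05 in edgeR, all of them lower, beside 8.25% of the 13059 genes tested (7.99% for higher). At an unadjusted p below 0.05, 15 members were lower, beside 15.1% of all genes, and 0 higher, beside 14.6%. In this subset 19 members lay lower and 2 higher without overlap, where 29.5% and 27.9% of all genes did so. With sgVec+IR replicate 3 alone left out, 25 members were below 0 (beside 51.3% of all genes), 6 were lower at an unadjusted p below 0.05 (beside 6.67%) and 0 higher (beside 5.18%), and GC content and the log2 fold change of the members had an r of −0.75, against −0.36 with both left out and 0.14 with all 6 libraries. None of the 10 reached a fold change of 1.5, while 3.37% of all genes passed both that mark and an adjusted p below 0.05. The largest was TM7SF2 at −0.44 (adjusted p = 0.00849), and the smallest adjusted p was that of SREBF1 (6.29e-06, at −0.39). Voom with sample weights, which keeps all 6 libraries but gives the 2 little weight, put 12 members below an adjusted p of 0.05, all lower, beside 11.8% of genes, and 0 higher, beside 10.5%. The test with 2 libraries per group measures the spread of close pairs, and the labels do not say that the libraries come from separate cultures.

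**Figure D3:**
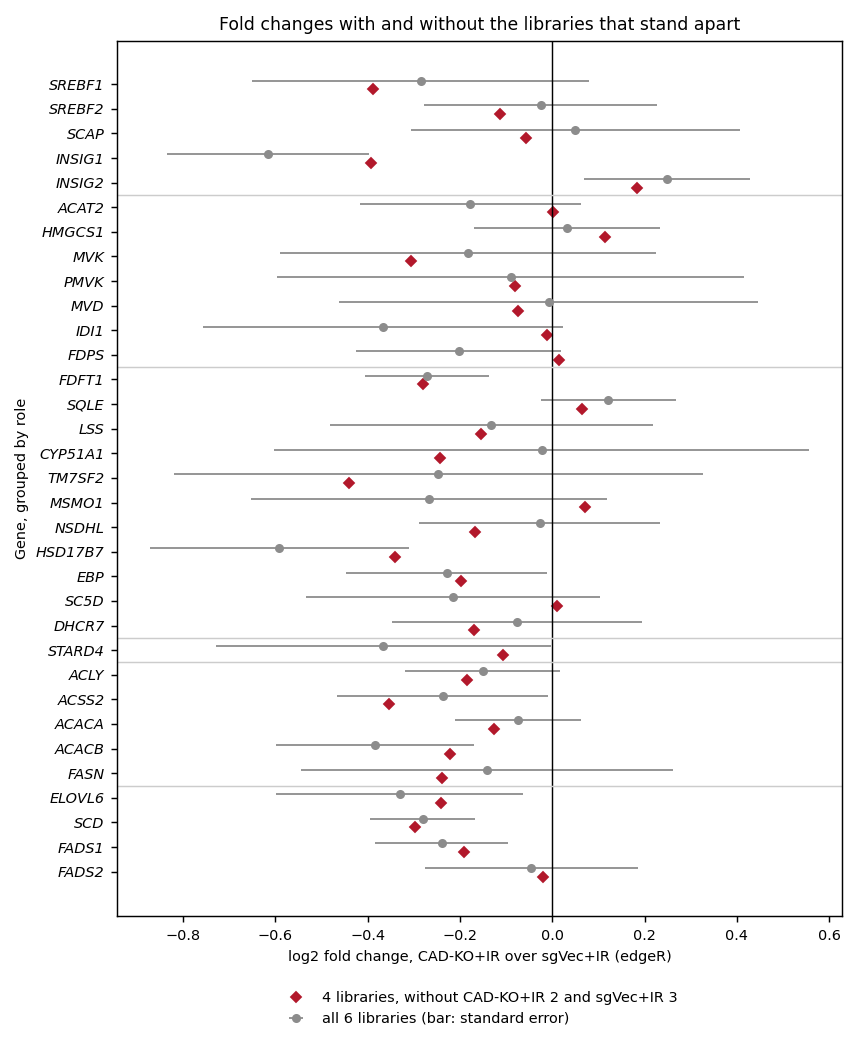
Log2 fold change (CAD-KO+IR over sgVec+IR) of the 33 members in the fit of all 6 libraries (grey circles, bars are standard errors) and in the fit without the 2 libraries that stand apart (red diamonds). The circles lie below 0 for 29 genes and the diamonds for 26.

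Among the regulators, across all 6 libraries, INSIG1 was lower and INSIG2 higher in CAD-KO+IR without overlap, while the 2 factors and SCAP overlapped. After GC correction INSIG1 stayed apart, INSIG2 overlapped and SREBF1 no longer did. The median of the 5 was −0.025, but 0.10 without CAD-KO+IR replicate 2 alone and −0.25 without sgVec+IR replicate 3 alone. INSIG1, which holds SCAP in the endoplasmic reticulum, was 38.4, 38.9 and 36.7 CPM in CAD-KO+IR and 49.4, 49.6 and 75.7 in sgVec+IR. The knockout values lay within a narrow band, and the highest control value was that of the deviating replicate 3. Its log2 fold change was −0.62 (SE 0.219, unadjusted p = 0.0263), and −0.39 without the 2 libraries (adjusted p = 0.00113). INSIG2, its paralog, was 19.1, 22.8 and 20.8 CPM in CAD-KO+IR and 17.7, 17.5 and 17.6 in sgVec+IR. The log2 fold change of INSIG2 was 0.25 (SE 0.179, unadjusted p = 0.208), or 0.18 without the 2 libraries (adjusted p = 0.335). After GC correction INSIG2 was 22.3, 18.2 and 22.4 in CAD-KO+IR and 21.5, 21.9 and 11.4 in sgVec+IR. The summed level of the 5 regulators overlapped, at 651, 447 and 584 CPM in CAD-KO+IR and 702, 719 and 413 in sgVec+IR. The count ratio of INSIG1 to INSIG2, which compares them within a library, was 2.01, 1.70 and 1.76 in CAD-KO+IR and 2.79, 2.83 and 4.31 in sgVec+IR. These ratios did not overlap, with the lowest control above the highest knockout, and they use counts without GC correction. That order follows from INSIG1 being lower and INSIG2 higher in every CAD-KO+IR library, so it adds nothing to those 2 results.

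SREBF1, which encodes the SREBP-1 factors for fatty acid genes, was 183, 106 and 163 CPM in CAD-KO+IR and 221, 233 and 96.4 in sgVec+IR. The deviating library was the lowest of each group, and without both the groups did not overlap. The log2 fold change was −0.29 (SE 0.365), and −0.39 without the 2 libraries. SREBF2, for the SREBP-2 factor of cholesterol genes, was 289, 207 and 262 CPM in CAD-KO+IR and 299, 299 and 173 in sgVec+IR, a log2 fold change of −0.025 (SE 0.252), or −0.11 without them (adjusted p = 0.179). SCAP, the escort, was 122, 71.5 and 102 CPM in CAD-KO+IR and 114, 120 and 51.2 in sgVec+IR, with a log2 fold change of 0.050 (SE 0.356) that went to −0.057 without the 2 libraries. SREBF1 lies across RAI1 on the opposite strand, and the strand setting of the counting is not given in the sources used here.

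**Figure D4:**
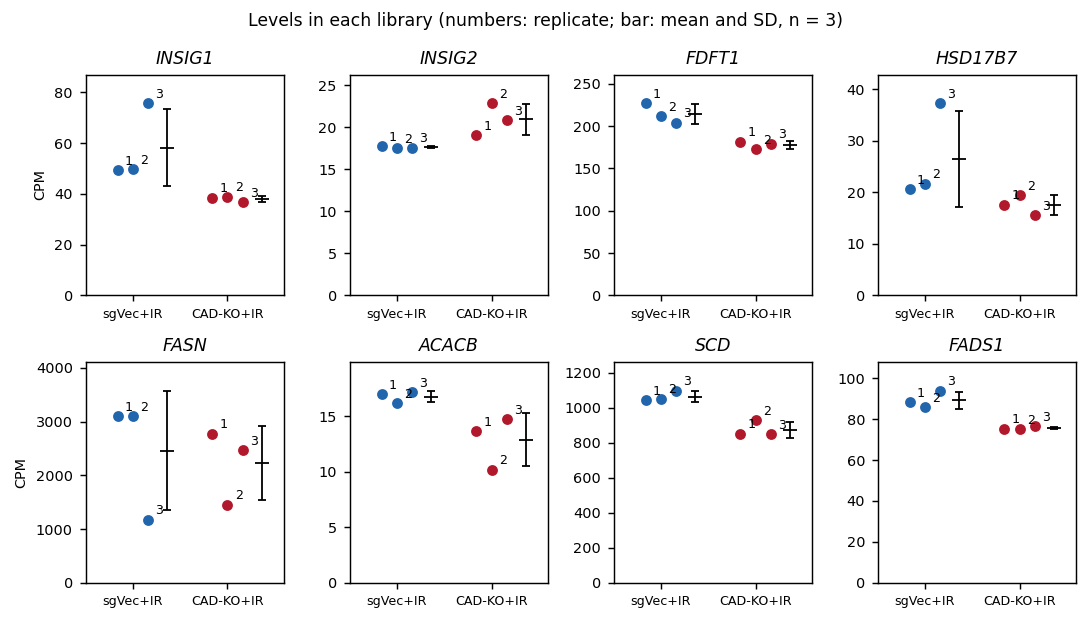
CPM of 8 members in each library (points, numbered by replicate), with the group mean and SD (n = 3). INSIG1, FDFT1, HSD17B7, SCD, FADS1 and ACACB lie lower in all CAD-KO+IR libraries, and INSIG2 higher, while FASN overlaps, with its lowest value per group in a library that stands apart.

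In the mevalonate pathway, from acetyl-CoA to farnesyl diphosphate, no member kept its groups apart across all libraries. Of its 7 members, 6 were below 0 and 1 above across all libraries, with a median of −0.18 and a range of −0.37 (IDI1) to 0.032 (HMGCS1). Without the 2 libraries the median was −0.012, and 3 of 7 lay above 0, as many as without CAD-KO+IR replicate 2 alone (median −0.026). MVK, the mevalonate kinase, alone of the 7 then passed, at −0.31 (adjusted p = 0.0404). HMGCS1, which makes HMG-CoA, was 117, 145 and 119 CPM in CAD-KO+IR and 115, 103 and 154 in sgVec+IR, so that the deviating library of each group was its highest. Its log2 fold change was 0.11 without the 2 libraries (adjusted p = 0.269). The summed level of the 7 genes was 400.1, 371 and 383 CPM in CAD-KO+IR and 411, 383 and 460.1 in sgVec+IR, with overlap. PMVK, FDPS, MVD and ACAT2 ran between −0.0075 and −0.20 across all libraries. MVK overlaps MMAB and ACAT2 overlaps SOD2 and TCP1, so reads in the shared stretches cannot be assigned to 1 gene without strand.

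From squalene to cholesterol, 10 of 11 members were below 0 and the median was −0.22 (−0.17 without the 2 libraries, with 8 of 11 below 0). Without CAD-KO+IR replicate 2 alone, 6 of 11 were below 0 and the median was −0.0015. FDFT1, squalene synthase, which commits the pathway to sterol, was 181, 173 and 179 CPM in CAD-KO+IR and 227, 212 and 204 in sgVec+IR. No knockout library reached any control, and the log2 fold change was −0.27 (SE 0.134, unadjusted p = 0.0837), staying at −0.28 without the 2 libraries (adjusted p = 0.000678). HSD17B7, the 3-ketosteroid reductase, was 17.6, 19.5 and 15.5 CPM in CAD-KO+IR and 20.6, 21.6 and 37.2 in sgVec+IR. The last control was the deviating one, and the log2 fold change of −0.59 (SE 0.280) became −0.34 (adjusted p = 0.0502) without the 2 libraries. SQLE, squalene epoxidase, the first oxygen step, was 87.9, 95.2 and 89.5 CPM in CAD-KO+IR and 88.3, 81.8 and 80.5 in sgVec+IR, a log2 fold change of 0.12 (SE 0.146) with groups that overlapped. That fold change was 0.064 without the 2 libraries (adjusted p = 0.604).

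The rest of this arm was less even. TM7SF2, a sterol reductase, and LSS, DHCR7, NSDHL and CYP51A1 were at −0.25 to −0.023 across all libraries and at −0.44 to −0.16 without the 2 libraries, with TM7SF2 the member that passed. TM7SF2 was 19.0, 9.86 and 17.5 CPM in CAD-KO+IR and 21.9, 28.1 and 4.73 in sgVec+IR, so its deviating libraries sat lowest in both groups, and it overlaps VPS51. MSMO1, a methylsterol oxidase, and SC5D, a sterol desaturase, both poor in GC (38.1% and 38.6%), were −0.27 and −0.22 in all libraries and 0.070 and 0.011 without the 2. EBP, the sterol isomerase, was −0.23 and −0.20. The sum over the 11 genes was 704, 654 and 678 CPM in CAD-KO+IR and 776, 762 and 745 in sgVec+IR, and the groups did not overlap. The sterol carrier STARD4 was −0.37 in all libraries and −0.11 without the 2, with its control replicate 3 at 124 CPM against 52.0 and 62.2.

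All 5 genes of fatty acid synthesis were below 0, with a median of −0.15, or −0.22 without the 2 libraries. Without CAD-KO+IR replicate 2 alone, 4 of 5 were below 0 and the median was −0.067. FASN, the multienzyme that builds palmitate, was 2774, 1450 and 2469 CPM in CAD-KO+IR and 3105, 3104 and 1174 in sgVec+IR. The deviating library was the lowest of each group, and FASN's log2 fold change of −0.14 (SE 0.403) became −0.24 without them (adjusted p = 0.000249). ACACA, the acetyl-CoA carboxylase of the cytosol, was 382, 373 and 401 CPM in CAD-KO+IR and 426, 432 and 360 in sgVec+IR, at −0.074 (SE 0.137), or −0.13 without the 2 libraries (adjusted p = 0.108). ACACB, the carboxylase tied to mitochondria, was 13.7, 10.2 and 14.8 CPM in CAD-KO+IR and 17.0, 16.2 and 17.1 in sgVec+IR, at −0.38 (SE 0.215) and −0.22 without the 2 libraries (adjusted p = 0.276). ACLY, which splits citrate, and ACSS2, which activates acetate, passed without the 2 libraries, at −0.18 (adjusted p = 0.0108) and −0.35 (adjusted p = 0.00202). ACSS2 overlaps GGT7, and ACACA overlaps C17orf78. FASN made up 29.3 to 42.3% of the summed level of the 33 members in CAD-KO+IR and 23.1 to 42.3% in sgVec+IR. The summed level of the 5 genes was 3747, 2300 and 3423 CPM in CAD-KO+IR and 4195, 4191 and 2030 in sgVec+IR, and that of all 33 members was 6554, 4949 and 6127 against 7353, 7343 and 5089. Both sums overlapped. Leaving FASN out of the 33, a choice made after the values were seen, the sum was 3780, 3499 and 3657 CPM in CAD-KO+IR and 4248, 4239 and 3916 in sgVec+IR, and the groups did not overlap.

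The 4 genes of elongation and desaturation were all below 0, with a median of −0.26, and of −0.28 with 3 of 4 below 0 when CAD-KO+IR replicate 2 alone was left out. SCD, which places the double bond of oleate, was 851, 928 and 847 CPM in CAD-KO+IR and 1043, 1050 and 1097 in sgVec+IR. The log2 fold change was −0.28 (SE 0.114, unadjusted p = 0.0427), and it was −0.30 without the 2 libraries (adjusted p = 1.08e-05). FADS1, the delta-5 desaturase of polyunsaturated fatty acids, was 75.4, 75.1 and 76.5 CPM in CAD-KO+IR and 88.2, 85.8 and 93.9 in sgVec+IR, at −0.24 (SE 0.144), or −0.19 without the 2 libraries (adjusted p = 0.0621). For SCD and FADS1 the groups did not overlap with all 6 libraries, nor after GC correction. Leaving libraries out cannot make such groups overlap. ELOVL6, an elongase of palmitate, was −0.33 and then −0.24 (adjusted p = 0.0296), and FADS2 was −0.045 and then −0.020. FADS1 and FADS2 overlap each other on opposite strands. The summed level was 1001, 1099 and 1003 CPM in CAD-KO+IR and 1218, 1226 and 1317 in sgVec+IR, without overlap, and most of it was SCD.

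Levels were also divided by the merged length of all annotated exons of a gene. That length can exceed the length of a transcript, so genes compare only roughly. On this scale, FASN (mean 263 CPM per kb in sgVec+IR, with libraries of 332, 331 and 125), SCD (198) and ACLY (103) were the highest of the members in the controls. The lowest were FADS2 (1.76), CYP51A1 (1.29) and ACACB (1.16). The places of FADS2 and ACACB rest on merged lengths of 11026 and 14505 bases. CYP51A1 overlaps the coding genes AC000120.2 and AC000120.3, and its counts ran from 15 to 116. The part of that overlap in its low place was not tested. SREBF2 stood at a mean of 34.0 and SREBF1 at 22.9 in the controls. Within each control library SREBF2 was the higher, at 39.6, 39.5 and 22.8 against 27.5, 29.1 and 12.0. The same order held in each CAD-KO+IR library, at 38.2, 27.4 and 34.6 against 22.8, 13.2 and 20.3.

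**Figure D5:**
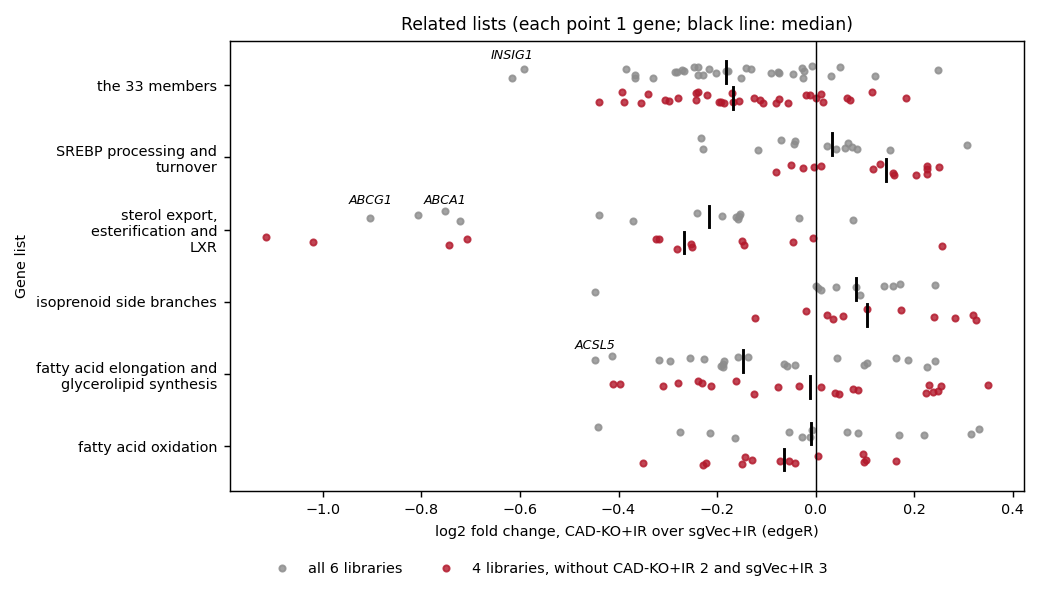
Log2 fold change (CAD-KO+IR over sgVec+IR) of each gene (points) of the 33 members and of 5 related lists, with the median of each list (black lines), for all 6 libraries in grey and without the 2 that stand apart in red. The medians of the members, sterol export, elongation and glycerolipid synthesis, and fatty acid oxidation lie below 0 in both fits. Those of SREBP processing and of the isoprenoid branches lie above it in these 2 fits.

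Genes next to the pathway did not all lean the same way. The 14 genes that process or degrade SREBP had a median of 0.033 (8 higher, 6 lower, 0 passing). Without the 2 libraries the median was 0.14, and 3 passed, all higher, beside 7.99% of all genes. Without CAD-KO+IR replicate 2 alone, 4 were higher and 10 lower and the median turned to −0.053. Of 14 tested genes of sterol export, esterification and LXR response, 13 were below 0, with a median of −0.22. Without CAD-KO+IR replicate 2 alone the median was −0.17, with 13 of 14 below 0. Without the 2 libraries it was −0.27, and 5 passed lower and 1 higher, beside 8.25% and 7.99% of all genes. In that list ABCA1, the cholesterol exporter, was 3.20, 3.95 and 3.59 CPM in CAD-KO+IR and 4.77, 6.43 and 6.98 in sgVec+IR, at −0.75 (SE 0.274, unadjusted p = 0.0290). ABCG1, also an exporter, was −0.90 (SE 0.327, unadjusted p = 0.0284), on 1.46 to 2.11 CPM in CAD-KO+IR and 2.94 to 3.79 in sgVec+IR. Without the 2 libraries, ABCA1 was −0.71 (adjusted p = 0.0363) and ABCG1 −1.12 (adjusted p = 0.0122). The 11 isoprenoid side branch genes had a median of 0.082 with 10 above 0, and of 0.10 without the 2 libraries, but without CAD-KO+IR replicate 2 alone 5 were higher and 6 lower, with a median of −0.024. The 22 genes of further elongation and glycerolipid synthesis had a median of −0.15, which was −0.011 without the 2 libraries and 0.019 without sgVec+IR replicate 3 alone. In this list ACSL5, an acyl-CoA synthetase, was −0.45 (SE 0.151, unadjusted p = 0.0212), and −0.41 without the 2 libraries (adjusted p = 9.99e-06). The 14 fatty acid oxidation genes were centered at −0.0090, at −0.064 without the 2 libraries and at 0.036 without CAD-KO+IR replicate 2 alone. None of these genes had an adjusted p below 0.05 in the edgeR fit of all 6 libraries, where 4 genes of all tested were differentially expressed.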

How the data were processed

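RNA-seq of 3 CAD-KO+IR and 3 sgVec+IR libraries of HCT116 cells was analysed from the deposited raw counts, which the authors made with featureCounts 1.5.0-p3 after cleaning reads with fastp. The aligner, annotation and strand setting are not given in the sources used here, and the labels name build mm10 although the gene identifiers are human. The members, lists and tests were chosen with earlier results of these data known. Groups came from the sample titles. Whether libraries came from separate cultures is not stated, so p-values measure the spread between these libraries.

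Counts of 20020 genes were filtered with filterByExpr (minimum count 10, minimum total count 15), leaving 12925, scaled by TMM and tested with edgeR 4.0.16 (R 4.3.3) by its quasi-likelihood test, with Benjamini-Hochberg adjustment over all genes tested. A gene was differentially expressed at an adjusted p below 0.05 and a fold change of at least 1.5. CPM used TMM-scaled library sizes, and the raw totals were 14032994 to 19574144 counts. GC content (longest coding transcript) and exon lengths (all annotated exons of a gene, merged) came from GENCODE, of human build GRCh38. Values in every library are given for the SREBP control genes, SQLE, ACACA, FASN and SCD, and members with an unadjusted p below 0.05 or groups that do not overlap. HMGCS1 and TM7SF2 were added after their values were seen. From each wider list, up to 5 genes with an unadjusted p below 0.05 were named. From the sterol export list, 1 gene is not reported here and was left out of the counts and median of that list after its values were seen. Alternatives were DESeq2 1.42.0, RLE scaling, no filter, the legacy quasi-likelihood fit, limma-voom 3.58.1 with sample weights, a replicate block and leaving out each library. The GC correction (lowess span 0.3), its combination with the block, and leaving out both deviating libraries were chosen after seeing the data. The script was tested on simulated data.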

Additional observations from a re-analysis of the deposited data

How the results depend on the processing

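The median of the members lay below 0 under every alternative run, from −0.067 without CAD-KO+IR replicate 2 to −0.26 without sgVec+IR replicate 3. Differentially expressed genes numbered 4 of all tested in edgeR, 41 with DESeq2, 41 after GC correction, 666 with voom and sample weights, 440 without both deviating libraries and 282 at an unadjusted p, and 0 to 22 with 1 library left out (0 without any CAD-KO+IR library, 22 without sgVec+IR replicate 3). Among members the count stayed 0, except 1 (INSIG1) at an unadjusted p. Members lower at an adjusted p below 0.05 numbered 12 with voom weights (beside 11.8% of all genes) and 10 without both libraries (beside 8.25%). Members without overlap between groups numbered 7 (beside 5.01% of all genes lower and 5.23% higher), and 14 after GC correction (beside 10.2% and 11.3%). Without both libraries they numbered 21 (beside 29.5% and 27.9%). With 1 library left out they numbered 7 to 20 (20 without sgVec+IR replicate 3), but the share over all genes was not computed. That share was larger with fewer libraries, so these last counts cannot be read as a result about the members. Whether the replicate numbers pair the samples is not given in the sources used here. Correlations of same-numbered deviations (0.47, −0.54 and −0.38) cannot decide it. The 2 deviating libraries share a GC trend and carry different numbers, which favors these signs with or without pairing. The replicate block gave 0 differentially expressed genes and turned the sign of log2 fold changes, to 0.0053 for SREBF2, 0.051 for MVD, 0.078 for CYP51A1, 0.0077 for NSDHL. Other log2 fold changes that turned sign were −0.057 for SCAP, 0.0013 for ACAT2, 0.015 for FDPS, 0.070 for MSMO1, 0.011 for SC5D without both libraries, −0.14 for SCAP, 0.0079 for IDI1, 0.12 for MSMO1, 0.012 for SC5D with voom weights, 0.0015 for MVD, 0.00032 for CYP51A1 with DESeq2, 0.0025 for MVD without the filter, 0.0045 for MVD after GC correction and 0.071 for CYP51A1 with that and the replicate block. With 1 library left out, the log2 fold changes that turned sign ran from −0.24 to 0.10 (SREBF2), −0.25 to 0.25 (SCAP), −0.31 to 0.066 (ACAT2), −0.077 to 0.22 (HMGCS1), −0.51 to 0.091 (MVK), −0.43 to 0.26 (PMVK), −0.36 to 0.27 (MVD), −0.60 to 0.20 (IDI1), −0.39 to 0.11 (LSS), −0.47 to 0.39 (CYP51A1), −0.69 to 0.20 (TM7SF2), −0.49 to 0.28 (MSMO1), −0.25 to 0.10 (NSDHL), −0.40 to 0.19 (SC5D), −0.31 to 0.060 (DHCR7), −0.59 to 0.11 (STARD4), −0.48 to 0.094 (FASN), −0.17 to 0.10 (FADS2). The cause was not tested. With 3 libraries per group, exact permutation tests cannot go below p = 0.1.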
